A study of Mus musculus with 9 samples.

Results

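The comparison of cells given NICD1 with cells given the empty vector covered every gene with a ratio in the authors' deposited table for this pair, 19287 of the 20076 genes with a ratio in either table of the series. The cells of all groups were cultured murine brain astrocytes of genotype Ink4a-/-. The controls had been transfected with pcDNA puro and the compared cells with pcDNA NICD puro, and 3 libraries were labelled for each of these 2 groups, 6 of the 9 libraries in the series. The remaining 3 libraries came from the same kind of cells given pcDNA HA-JICD1 puro. By the labels the controls also lack Ink4a, a locus whose products restrain the cell cycle. The authors' deposited table holds 1 log2 ratio per gene, NICD1 over control, and 1 score between 0 and 1. It gives no value per library, so no replicate error, p-value or depth is given for any ratio here. The labels do not say whether the libraries came from separate cultures or how long after transfection the cells were taken.

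NICD1 denotes the piece of the Notch1 receptor that lies inside the cell. When a ligand on a neighbouring cell binds Notch1, the receptor is cut, this piece is released from the membrane and enters the nucleus, and there it joins the DNA-binding protein RBPJ and the coactivator Mastermind to switch on target genes. A vector that encodes NICD1 supplies the piece without a ligand. In the brain Notch signalling keeps neural progenitors from becoming neurons and favours glial fates, and it also acts in smooth muscle cells and in tumours.

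A gene was called higher or lower when its score was 0.8 or more and its absolute log2 ratio was 1 or more. This is a rule of size and score, not a test. A large ratio can arise when a gene is at or near the lowest value in either group. Genes whose ratio and score lay on a curve shared by many genes are described as having a group at a common floor, and their fold is left out. Genes above 0 with no ratio in the JICD1 table were treated in the same way, and 7 of the 11 called ones lay off the curve, so for these the floor is doubtful. The table does not mark this floor, and each mention of it is an inference.

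The transfected gene stood above control, as did the Notch pathway genes Nrarp, Hes1 and Jag1, which were named as checks. Whether NICD1 acts on these genes directly was not tested. In the authors' deposited table Notch1 had a log2 ratio of 1.77 (score 0.815), 3.41-fold higher in NICD1 cells. The sources used here do not say whether reads of the construct add to this value. Nrarp, which encodes a feedback inhibitor of Notch signalling, had 2.84 (score 0.837) and the transcriptional repressor gene Hes1 1.58 (score 0.846) in the authors' deposited table. The ligand gene Jag1 had 1.36 (score 0.819) there, 2.56-fold higher. Cdkn2a, the gene of the Ink4a locus, had 7.59 (score 0.827) in the authors' deposited table, with control inferred at the floor. Which exons gave those reads is unknown, so this ratio is no check of the deletion.

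Of the 19287 genes, 313 were called higher (1.62%) and 187 lower (0.97%), 500 in all or 2.59%. The bulk of genes lay near 0: the median log2 ratio was -0.02, the quartiles were -0.37 and 0.52, and 48.5% of genes lay above 0. Called genes differed in size by direction. The median of those called higher was 3.27, and 67.7% of them had a ratio of 2 or more and 43.1% a ratio of 4 or more. The median of those called lower was -2.17, and 54.5% had a ratio of -2 or less and 19.8% a ratio of -4 or less. A group was inferred at the floor for 26 genes called higher, the 7 doubtful ones included, and 5 called lower. At the threshold of the score, Lpin1 (-1.69, score 0.8004) was just inside and Cpq (-1.81, score 0.7995) just outside in the authors' deposited table. Protein-coding genes made up nearly every call: 3.18% of 15441 were called, against 0.438% of 1369 long non-coding genes and 0.141% of 2121 pseudogenes. Absolute ratios of 1 or more were nevertheless found in 51.5% of the pseudogenes and 23.9% of the protein-coding genes.

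**Figure D1:**
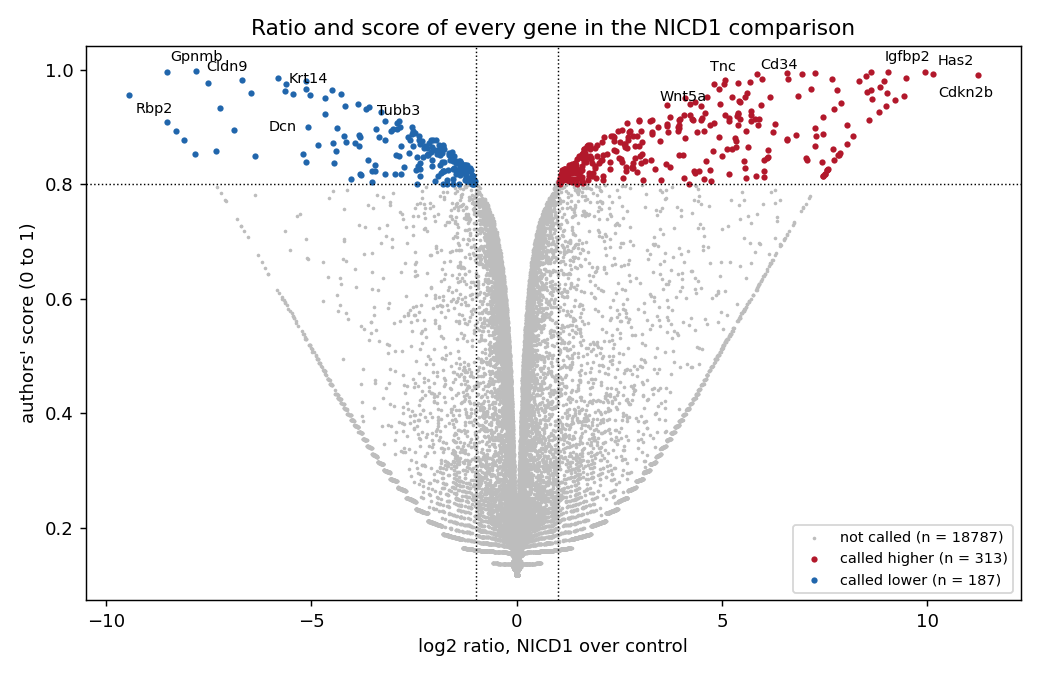
Log2 ratio of NICD1 over control (horizontal axis) against the authors' score from 0 to 1 (vertical axis), 1 point per gene, with dotted lines at the score of 0.8 and at ratios of -1 and 1. The 313 genes called higher reach a ratio of 11.24 (Cdkn2b) and the 187 called lower reach -9.45 (Rbp2), and the outer arms of grey points are the curve of genes with a group inferred at the floor.

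The largest ratios above 0 belonged to genes of different functions. The authors' deposited table gave Cdkn2b, which encodes the CDK4 and CDK6 inhibitor p15Ink4b, 11.24 (score 0.991), with control inferred at the floor from its JICD1 ratio of 1.81. Has2, the main hyaluronan synthase gene of mesenchymal cells, had 10.13 (score 0.993) and Creb3l1, a membrane-bound bZIP factor of secretory cells, 9.96 (score 0.996) in the authors' deposited table. The authors' deposited table listed the protocadherin gene Pcdh7 at 9.48 (score 0.986). For Has2, Creb3l1 and Pcdh7 it could not be decided whether control was at the floor. The insulin-like growth factor binding protein gene Igfbp2 had 9.06 (score 0.996), the basement membrane gene Nid1 8.63 (score 0.996) and the heparan sulfate proteoglycan gene Gpc4 8.63 (score 0.964) in the authors' deposited table.

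Several of these genes lay near 0 in the JICD1 table and others did not. The JICD1 ratio of the authors' deposited table was -0.01 for Igfbp2, 0.52 for Cd34 and -0.15 for the glycoprotein gene Tnc, which had 9.06, 7.26 and 5.86 with NICD1. Cyba, a subunit gene of the superoxide-producing NADPH oxidase, had 8.51 with NICD1 and 0.02 with JICD1 in the authors' deposited tables. By contrast Nid1 had 7.62, Gpc4 8.96, the RNA-binding protein gene Khdrbs3 8.36 and the POU factor gene Pou3f3 5.62 with JICD1, beside 8.63, 8.63, 7.69 and 6.95 with NICD1 in the authors' deposited tables. Both tables use the same control libraries, so a low control raises a gene in both.

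The other genes among the 15 largest ratios were Bhlhe22 (9.43), Eya4 (9.23), Fndc3c1 (9.03), Pparg (9.003), Tmem35a (8.94), Bhlhb9 (8.85), Sprr1a (8.83) and Plcl2 (8.67) in the authors' deposited table. Control was inferred at the floor for Bhlhe22, Eya4, Pparg and Sprr1a. Bhlhe22 encodes a neural bHLH repressor, Eya4 a transcriptional cofactor and phosphatase, and Pparg the nuclear receptor that drives fat cell formation. Of the genes with the highest scores, the authors' deposited table also listed the kidney and heart developmental factor gene Osr1 at 6.61 (score 0.983).

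Genes called lower with the largest ratios belonged to no single family. Rbp2, an intracellular retinol-binding protein gene, had -9.45, the Wnt-receptor ligand gene Ndp -8.53 and Gprin1 -7.84 in the authors' deposited table, all with NICD1 inferred at the floor. Rbp2 and Gprin1 had the same ratios with JICD1 in the authors' deposited table, whereas Ndp had -1.23 there. The lysosomal and melanosomal glycoprotein gene Gpnmb had -8.53 (score 0.997) and the tight junction gene Cldn9 -7.82 (score 0.998), the highest scores among genes called lower in the authors' deposited table. The carboxylesterase gene Ces2g (-7.51), Dnajc27 (-7.33), Zfp982 (-7.23), the copper-dependent ferroxidase gene Heph (-6.88), the Cdc42 effector gene Cdc42ep5 (-6.70) and Hoxa10 (-6.48) followed in the authors' deposited table. Ces2g and Dnajc27 had -0.40 and -0.09 with JICD1, and Heph and Cdc42ep5 had -8.36 and -6.62, in the authors' deposited tables. Further down were the potassium channel gene Kcnh5 (-6.37), the basal keratin gene Krt14 (-5.82), Sned1 (-5.66), Capn6 (-5.61), Eps8l2 (-5.45), the cytochrome P450 gene Cyp2c55 (-5.14), Igfbp6 (-4.51) and the desmosome and apoptosis gene Perp (-4.28) in the authors' deposited table.

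Of the 500 called genes, 222 belonged to at least 1 of 102 lists drawn up for gene families and cell type markers, and 278 to none. In 21 lists no member was called. The lists are described below by function, each against the 48.5% of all genes above 0, the median of -0.02 and the 2.59% called.

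Genes of secreted and membrane-bound proteases were among the families with calls in the higher direction. Matrix metalloproteinases degrade collagens and other matrix proteins, and Timps inhibit them. Of 24 measured members of this list 16 lay above 0, 5 were called higher and 0 lower, and the median was 0.57, or 0.24 over the 19 not treated as at the floor. The stromelysin gene Mmp3 had 3.96 (score 0.898, 15.6-fold), the stromelysin-2 gene Mmp10 5.98 (score 0.985, 62.9-fold) and the collagenase gene Mmp13 6.17 (score 0.953, 72.2-fold) in the authors' deposited table. With JICD1 these 3 genes had -5.38, -3.54 and -3.30 and none was called in the authors' deposited table. Whether the JICD1 group was at the floor for these genes was not assessed. The membrane-bound Mmp16 had 4.49 and the inhibitor gene Timp1 1.65 in the authors' deposited table; Mmp16 has no JICD1 ratio but lies off the curve, so its control is undecided. The uncalled extremes were Mmp24 at -4.21 and Mmp15 at 6.17 in the authors' deposited table, the latter with control inferred at the floor.

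Mmp3, Mmp10 and Mmp13 lie in 1 cluster of metalloproteinase genes on mouse chromosome 9. They are shown because all 3 were called higher and each has an AP-1 motif, TGANTCA, close to the start of transcription. The sequences below are the 100 bases before each start site on the plus strand, from RefSeq on GRCm38.p6, with the motif in capitals. These genes were chosen for display after their values had been seen.
Mmp3, chr9:7445722-7445821: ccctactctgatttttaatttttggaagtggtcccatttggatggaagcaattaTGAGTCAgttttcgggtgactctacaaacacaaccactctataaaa
Mmp10, chr9:7502242-7502341: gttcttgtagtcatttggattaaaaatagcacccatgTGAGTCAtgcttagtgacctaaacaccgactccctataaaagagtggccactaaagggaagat
Mmp13, chr9:7272414-7272513: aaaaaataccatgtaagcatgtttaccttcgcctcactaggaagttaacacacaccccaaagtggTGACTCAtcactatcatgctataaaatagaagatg
The motif starts at position -46 in Mmp3, -63 in Mmp10 and -35 in Mmp13, counted from the start site. A match of letters is no evidence that AP-1 is bound there.

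Motifs were counted in the same way over all RefSeq promoter windows, each from 250 bases before to 50 bases after a start site, of which there were 16223 for 12822 measured genes. TGANTCA, which reads the same on both strands, was present in 10.5% of 304 windows of genes called higher, 10% of 190 windows of genes called lower and 5.95% of all windows. With 1 window per gene, the first or the last listed, the shares were 8.07% or 10.8% for genes called higher, 9.72% or 9.03% for genes called lower and 5.8% or 5.72% for all. The RBPJ core TGGGAA, searched on both strands, was present in 25.3%, 20.5% and 24% of the windows. The TEAD motif GGAATG, on both strands, was present in 16.4%, 14.7% and 13.1%. The RBPJ and TEAD words share the letters GGAA, so a single stretch can hold both. Counting over all windows was preferred after the shares had been seen.

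Disintegrin metalloproteinases shed membrane proteins or, in the secreted Adamts branch, cut proteoglycans. Of 37 measured Adam and Adamts genes 30 lay above 0 (25 of the 31 with no group at the floor), with a median of 0.94. Called higher were Adamts9 at 7.27, Adam19 at 5.01 and Adam12 at 3.31 in the authors' deposited table, and 0 were called lower. Among 37 serpins and plasminogen activator genes 29 lay above 0 with a median of 0.82, 3 were called higher and 0 lower. The called genes of that list included the urokinase gene Plau at 1.36 and the tissue-type activator gene Plat at 1.21 in the authors' deposited table. Of 18 cathepsins and cystatins, Ctsc at 1.65 was called in the authors' deposited table.

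Matricellular proteins sit in the matrix and modulate adhesion, and fibrillins and fibulins build elastic fibres. Of 42 measured members 29 lay above 0, 8 were called higher and 2 lower, and the median was 0.63. Tnc, the tenascin-C gene, had 5.86 (score 0.992), the elastic fibre gene Emilin2 5.34, the integrin ligand gene Npnt 2.53 and Fbln5 2.42 in the authors' deposited table. The fibrillin gene Fbn2 had 7.84 with control inferred at the floor in the authors' deposited table. On the lower side were Tgfbi at -2.92 and the calcification inhibitor gene Mgp at -2.05 in the authors' deposited table.

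Collagens and proteoglycans were divided. Of 37 collagen chain genes 17 lay above 0, 3 were called higher and 3 lower, with a median of -0.15. The fibrillar chains themselves went both ways: Col11a1 had 4.58, Col1a2 1.80 and Col1a1 1.74, against -3.31 for Col3a1, in the authors' deposited table. The paired collagen VI genes Col6a1 and Col6a2 had -1.27 and -1.22 in the authors' deposited table. Of 20 genes for enzymes that hydroxylate or crosslink collagen 13 lay above 0, 4 were called higher and 1 lower, and the prolyl 3-hydroxylases P3h3 (2.81) and P3h2 (-2.66) had opposite signs in the authors' deposited table. Tgm2, a transglutaminase gene, had 1.82 and the prolyl 4-hydroxylase genes P4ha2 and P4ha1 had 1.20 and 1.15 in the authors' deposited table.

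In the list of 30 proteoglycan and hyaluronan genes 12 lay above 0, 1 was called higher (Has2) and 3 lower. The lower ones were the collagen-binding small proteoglycan genes Dcn (-5.08) and Prelp (-2.53) and the hyaluronan receptor gene Stab1 (-2.44) in the authors' deposited table. Of 30 glypican, syndecan and heparan sulfate genes, Gpc4 (8.63) and Sdc3 (1.91) were called higher and Gpc1 (-1.14) lower in the authors' deposited table. Of 25 integrins only Itgb7 was called, at -2.87 in the authors' deposited table.

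Enzymes that build the sugars of glycoproteins and glycolipids had more calls below than above 0. Of 87 measured glycan and sphingolipid transferases 2 were called higher and 5 lower, with a median of -0.06. The lower ones were Gcnt4 (-4.85), Chst10 (-4.68), the lactosylceramide-extending B3gnt5 (-2.36), the ganglioside synthase gene B4galnt1 (-2.36) and the bisecting-branch gene Mgat3 (-1.85) in the authors' deposited table. Chst2, a sulfotransferase gene, had 2.92 and the glucosylceramide synthase gene Ugcg 1.41 in the authors' deposited table.

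Protocadherins mediate recognition between cells, chiefly neurons, and many lie in 3 tandem clusters. Of 39 measured protocadherins 10 lay above 0, Pcdh7 was called and the median was -0.81. The 21 genes of the Pcdhb cluster lay below 0 without exception, between -4.35 and -0.66 with a median of -1.99; the highest score was 0.763, so none was called, and NICD1 was inferred at the floor for 5. With JICD1 the same 21 genes had a median of -1.01 with 5 above 0, against the shared control. Among 9 measured Pcdhg genes 4 lay above 0, with a median of -0.15. This split by cluster was made after the values were seen, and the Pcdhb genes are similar in sequence, so reads may have been shared between them.

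Of 25 cadherins 19 lay above 0, and Cdh11, a cadherin gene of mesenchymal cells, was called at 4.33 in the authors' deposited table. Of 42 immunoglobulin-type adhesion genes Ncam1 (1.61) and Vcam1 (1.14) were called higher in the authors' deposited table. Among 38 intermediate filament genes 14 lay above 0, and the keratin genes Krt14 (-5.82) and Krt80 (-2.55) were called lower in the authors' deposited table. Of 42 claudin, connexin and tight junction genes F11r (3.06) was called higher and Cldn9 lower in the authors' deposited table.

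Smooth muscle and contractile genes lay mostly above 0: 32 of 44, with a median of 0.36, 5 called higher and 0 lower. Tagln, which encodes the actin-binding protein transgelin, had 4.21 (18.5-fold), the tropomyosin gene Tpm2 2.47, Acta2 1.71, the troponin gene Tnnt2 1.35 and Pdlim1 1.17 in the authors' deposited table. In the microtubule list of 48 genes, the neurite genes Gap43 (3.96), Map2 (3.95), Stmn2 (2.76) and Tubb2b (2.36) were called higher, and the neuronal tubulin gene Tubb3 (-3.67) lower, in the authors' deposited table.

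**Figure D2:**
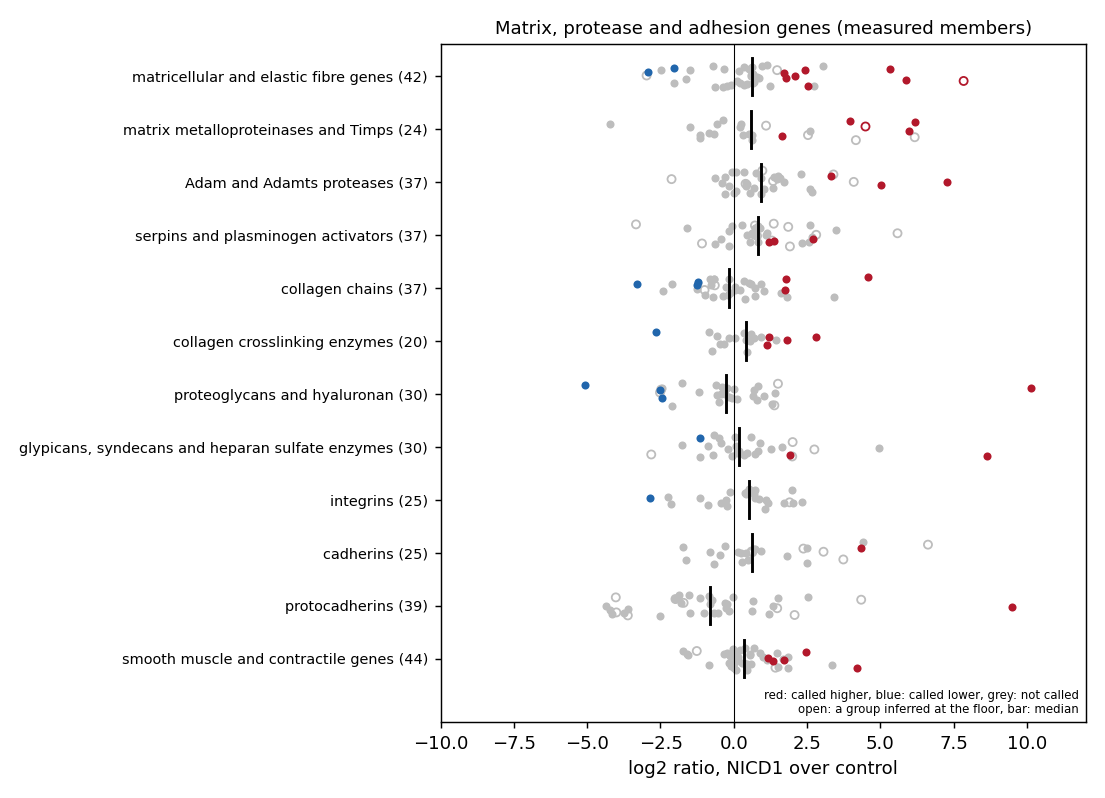
Log2 ratio of NICD1 over control (horizontal axis) for each measured member of 12 matrix, protease, adhesion and contractile lists, with the number of members in parentheses. Red points are called higher, blue called lower and grey not called, open points have a group inferred at the floor, and black bars are medians; the Adam and Adamts median stands at 0.94 and the protocadherin median at -0.81.

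Wnt ligands had calls in both directions. Of 15 measured ligand genes 2 were called higher and 4 lower, 40% against 2.59% of all genes. Wnt5a and Wnt5b, which encode the related ligands that act mostly without beta-catenin, had 4.97 (score 0.940, 31.2-fold) and 4.61 (score 0.842, 24.4-fold) in the authors' deposited table. Called lower were Wnt7b at -3.21, Wnt9a at -2.44, Wnt10a at -1.80 and Wnt10b at -1.37 in the authors' deposited table. Beside them, the JICD1 ratios of the authors' deposited table were 3.38 for Wnt5a, -3.49 for Wnt5b and -8.54 for Wnt7b. Whether the JICD1 group was at the floor for Wnt5b and Wnt7b was not assessed. Of the receptors, antagonists and targets of the pathway, 35 genes, the secreted antagonist gene Sfrp1 had 6.58, the co-receptor gene Lrp5 5.38 and the inhibitor gene Apcdd1 -1.18 in the authors' deposited table.

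Guidance genes steer growing axons and migrating cells. Of 30 semaphorins and plexins 3 were called higher and 2 lower: Sema3e (7.44), Sema6d (4.55) and Sema3a (1.81) against Sema3b (-2.95) and Plxna2 (-1.46) in the authors' deposited table. Of 18 Slit, Robo, netrin and Unc5 genes the Slit receptor gene Robo1 had 7.46, the netrin receptor gene Unc5c -3.83 and Rgma -1.37 in the authors' deposited table. Eph receptors and ephrins lay mostly below 0 (5 of 19 above, median -0.49), with no member called. Their uncalled extremes in the authors' deposited table were Epha8 at -2.32 and Epha7 at 4.38, the latter with control inferred at the floor.

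In the Egf, Vegf and Pdgf, neurotrophic, insulin-like growth factor, TGF-beta, and BMP and GDF lists 4.65% to 11.8% of genes were called, against 2.59% of all genes. Each of these lists had at most 3 called genes. Areg, which encodes the EGF receptor ligand amphiregulin, had 7.82 (score 0.966) in the authors' deposited table and was the called member among 14 Egf family genes. Of 28 Vegf, Pdgf and angiopoietin genes 3 were called higher: Angpt4 (6.12), the placental growth factor gene Pgf (4.05) and Vegfa (1.12, 2.18-fold) in the authors' deposited table. The GDNF family receptor gene Gfra2 had 5.80 in the authors' deposited table. Of 17 genes of the insulin-like growth factor system Igfbp2 was called higher and Igfbp6 lower. Of the TGF-beta family, the latency genes Lrrc32 (7.04) and Ltbp2 (3.66), the BMP-binding gene Bmper (2.64) and the activin subunit gene Inhba (1.95) were called higher in the authors' deposited table. None of the 14 Fgf ligands or 19 Fgf receptor and Sprouty genes was called. Feedback phosphatases of MAP kinases were divided, with Dusp5 (2.14) and Dusp1 (1.18) higher and Dusp9 (-1.98) lower in the authors' deposited table.

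Cytokine genes had calls in both directions. Of 64 interleukin and receptor genes 6 were called higher and 2 lower, with a median of 0.25, or 0.14 without genes at the inferred floor. The receptor genes Il13ra1 (8.33) and Il17ra (6.86), the alarmin gene Il33 (4.93) and Il11 (2.83) were among those higher, and the receptor gene Il2rg (-3.44) and the interleukin-1 antagonist gene Il1rn (-3.06) lower, in the authors' deposited table. Of 25 chemokine ligands 19 lay above 0 with a median of 1.27, which was 0.50 over the 19 members with no group at the floor. Cxcl3 (5.56), Cxcl10 (1.93) and Ccl9 (1.59) were called higher, and the monocyte attractant gene Ccl7 had -1.97, in the authors' deposited table. Of 79 genes in the interferon-induced list 51 lay above 0, with a median of 0.26 and 0 called; Cxcl10, also known as an interferon target, was counted with the chemokines. In the TNF superfamily, 45 genes, the receptor genes Tnfrsf25 (-3.80), Tnfrsf21 (-1.80) and Tnfrsf1b (-1.14) were called lower and 0 higher in the authors' deposited table. Prostaglandin synthesis genes went both ways: the arachidonate-releasing Pla2g4a (1.31) and the inducible cyclooxygenase Ptgs2 (1.09) were higher, and the constitutive Ptgs1 (-1.07), Pla2g7 (-1.23) and the leukotriene synthase Ltc4s (-3.86) lower, in the authors' deposited table.

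The proliferin genes, prolactin-like hormones of the placenta and of growing cells, were the family with the highest median of those with more than 10 members. Of 11 measured prolactin family genes 9 lay above 0, 4 were called higher and 0 lower, and the median was 2.42, or 4.21 over the 8 with no group at the inferred floor. Prl2c3 had 6.59 (score 0.994, 96.1-fold), Prl2c1 5.33, Prl2c5 5.24 and Prl2c2 5.08 (score 0.983, 33.8-fold) in the authors' deposited table. With JICD1, Prl2c3 had -0.67 and Prl2c2 0.27 in the authors' deposited table. The Prl2c genes are near-identical copies, and how reads were divided between them is not given, so the separate ratios are uncertain.

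Among transcription factors, called genes made up 23.1% of the Sox genes, 11.1% of the bHLH genes and 5.68% of the homeobox genes outside the Hox clusters, against 2.59% of all genes. These shares rest on 3, 6 and 5 called genes. Of 88 homeobox genes outside the Hox clusters 5 were called higher and 0 lower: Msx2 (7.84, control inferred at the floor), Pou3f3 (6.95), Pou6f1 (3.27), Vax1 (2.08) and Emx2 (1.34) in the authors' deposited table. Among the called forkhead genes were Foxa1 (7.56, control at the inferred floor) and Foxs1 (3.68) in the authors' deposited table. Of 13 Sox genes the neural Sox11 (4.63) and Sox21 (4.33) were called higher and the gliogenic Sox9 (-1.64) lower in the authors' deposited table. Of 54 bHLH genes Bhlhe22, the Myc relative Mycl (3.36), the aryl hydrocarbon receptor gene Ahr (1.64) and Id3 (1.20) were called higher, and the Ahr repressor gene Ahrr (-3.37) and the tendon factor Scx (-1.53) lower, in the authors' deposited table. None of 24 ETS, 8 T-box or 12 Gata, Runx and Nfi genes was called.

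Hox genes pattern the body axis and lie in 4 clusters. Of 23 measured Hox genes 8 lay above 0, Hoxa10 was called lower and the median was -0.71. That median was -0.41 without genes at the inferred floor and -0.07 with the table's own symbols only. Hoxa9 had -4.30 and Hoxa10 -6.48 in the authors' deposited table. Of 9 measured Hoxa genes 5 lay above 0, with a median of 0.26. Of 7 measured Hoxb genes 1 lay above 0, with a median of -3.02, and NICD1 was inferred at the floor for 3. The medians of 4 Hoxc and 3 Hoxd genes were -0.82 and -0.66. With JICD1 the values of the authors' deposited table were -2.33 for Hoxa10, -3.22 for Hoxa9 and 2.66 for Hoxb5, which had -3.46 with NICD1. The split by cluster was made after the values were seen, and differences between clusters were not tested.

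Zinc finger genes named Zfp lay more often below 0 than all genes: 130 of 375 above 0, with a median of -0.16. Of the Zfp genes 1.6% were called, 4 higher and 2 lower, against 2.59% of all genes. Zfp518a (6.81) and Zfp518b (8.60, control inferred at the floor), a pair of paralogues on different chromosomes, were both called higher in the authors' deposited table, beside Zfp704 (7.08) and Zfp469 (1.33). Zfp982 (-7.23) and Zfp979 (-4.45) were called lower in the authors' deposited table; they belong to a family of close copies on chromosome 4, so their counts may be mixed.

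In the potassium channel list and the list of other cation and chloride channels, the called members were all lower. Of 60 potassium channel genes 38 lay above 0 with a median of 0.74. That median was 0.52 over the 36 with no group at the inferred floor and 0.30 over genes in both tables. Control was inferred at the floor for 17 and NICD1 for 7. Of the 60 genes 0 were called higher and 3 lower, 5% against 2.59% of all genes. The called ones were Kcnh5 (-6.37), the beta subunit gene Kcnab2 (-4.67) and the inward rectifier gene Kcnj2 (-2.82) in the authors' deposited table. Of 93 other cation and chloride channel genes 2.15% were called: the calcium-activated chloride channel gene Ano1 (-2.91) and the acid-sensing Asic1 (-2.18), both lower, in the authors' deposited table. Of 25 aldo-keto reductases and carboxylesterases 5 lay above 0, 4 were called lower and 0 higher, and the median was -0.83. Ces2g had -7.51, Akr1c13 -3.02, Akr1c18 -2.35 and Akr1c14 -2.23 in the authors' deposited table; the Akr1c genes reduce steroids and prostaglandins.

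Of 36 cytochrome P450 genes the oxysterol hydroxylase gene Cyp7b1 (5.24) and Cyp1b1 (1.59) were called higher and Cyp2c55 (-5.14) lower in the authors' deposited table. Of 59 glutathione and Nrf2-linked genes the carbonyl reductase gene Cbr1 (5.88) and Prdx5 (1.27) were called higher and Mgst2 (-3.84) and Gstm2 (-1.63) lower in the authors' deposited table. Among ABC transporters and apolipoproteins, the efflux pump gene Abcg2 (5.68, with no JICD1 ratio but off the curve) and the cholesterol exporter gene Abca1 (2.10) were called higher in the authors' deposited table. The near-identical Apol9a (-2.07) and Apol9b (-1.88) were called lower in the authors' deposited table.

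The large families of replication, oxidative phosphorylation, proteasome, ribosomal and histone genes had 0 or 1 called member each. Of 88 replication and mitosis genes 16 lay above 0 and 0 were called, with a median of -0.17 and values from -0.74 (Pold1) to 0.88 (Rrm2) in the authors' deposited table. The 6 helicase genes Mcm2 to Mcm7 lay between -0.39 and -0.11. Of 90 oxidative phosphorylation genes 19 lay above 0 and 0 were called, with a median of -0.13. Of 38 proteasome genes 34 lay above 0, with a median of 0.24, and the immunoproteasome gene Psmb8 (5.31) was called in the authors' deposited table. Ribosomal protein genes had a median of 0.05, with 54 of 82 above 0. Of 62 replication-dependent histone genes 17 lay above 0 with a median of -0.81 and 0 called; their transcripts mostly lack a poly(A) tail, and the sources used here do not say how RNA was selected.

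The CDK inhibitor list had a median of 0.89, or 0.17 over the 5 members with no group inferred at the floor, 3 of them above 0. Control was inferred at the floor for Cdkn2b and Cdkn2a. Of 7 measured members 5 lay above 0 and 3 were called higher, namely Cdkn2b, Cdkn2a and Cdkn1a, which had 1.57 (2.98-fold) in the authors' deposited table. Cdkn2a and Cdkn2b are neighbours on chromosome 4. Mtap, a methionine salvage gene close to them and chosen after its value was seen, had -0.60 (score 0.743) in the authors' deposited table. None of 27 cyclin and cyclin-dependent kinase genes was called, and their values ran from -0.74 (E2f7) to 0.56 (Cdk5) in the authors' deposited table.

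**Figure D3:**
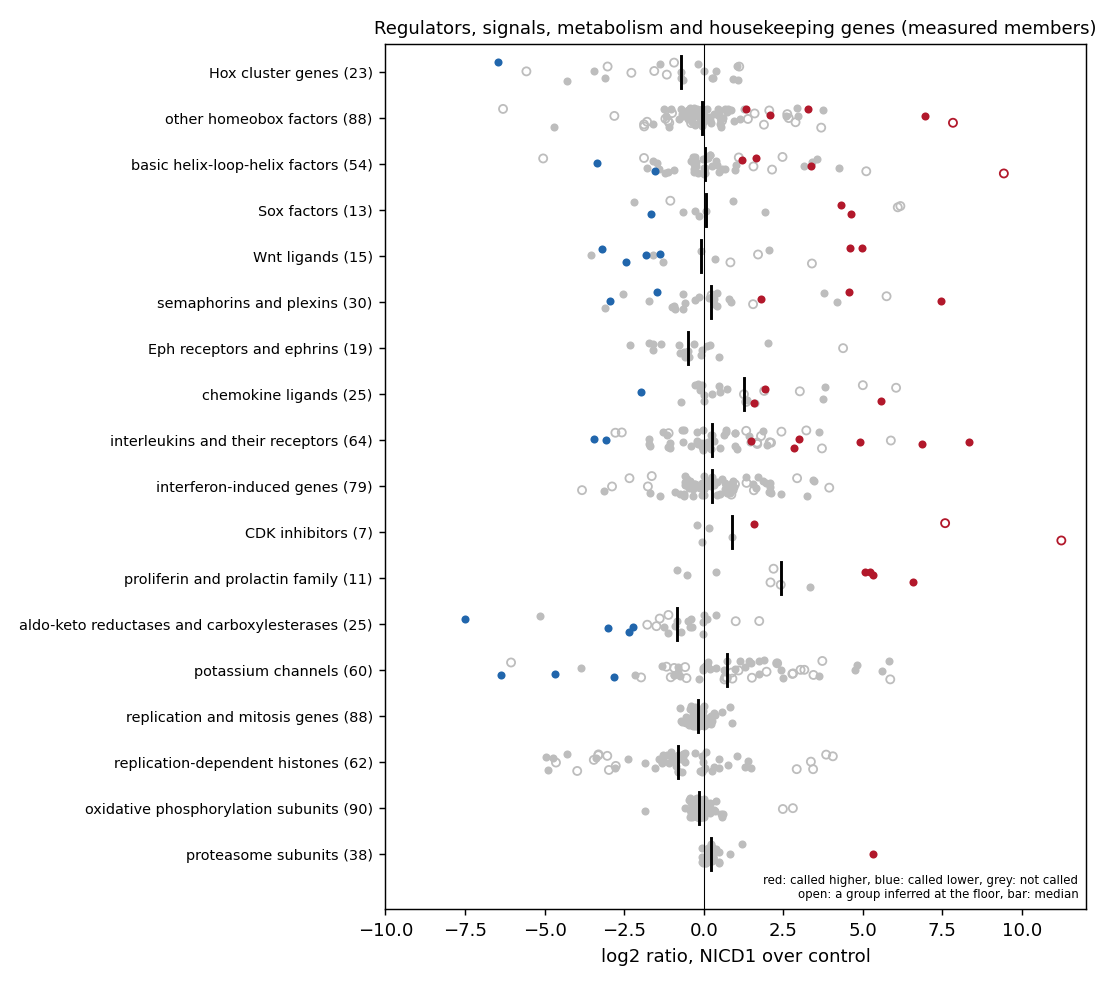
Log2 ratio of NICD1 over control (horizontal axis) for each measured member of 18 lists of regulators, signals, metabolism and housekeeping genes, with the number of members in parentheses. Red points are called higher, blue called lower and grey not called, open points have a group inferred at the floor, and black bars are medians; the proliferin median stands at 2.42, and the replication genes lie between -0.74 and 0.88.

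Genes of chromosome 19 lay above 0 as a group. This was noticed after the values were seen. Of 588 measured genes on it 81.5% lay above 0, with a median of 0.46. Over the 518 with no group inferred at the floor, 433 (83.6%) lay above 0, the median was 0.44 (1.36-fold) and the quartiles were 0.16 and 0.76. The medians of the other 19 chromosomes, Y left out, ran from -0.09 (chromosome 13) to 0.00 (chromosome 17), with 41% to 50.1% of genes above 0.

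The shift was present along the whole chromosome. When its genes were cut in order into 10 blocks of about equal number, the median ran from 0.24 to 0.61 and the share above 0 from 74.5% to 92.3%. Medians of windows of 61 neighbouring genes stayed between 0.24 and 0.64 on chromosome 19. The highest window elsewhere had 0.29, on chromosome 17, and the lowest had -0.57, on chromosome 13. Chromosome 19 held 22 of the 313 genes called higher, 3.74% of its genes against 1.62% of all genes, and 4 of the 187 called lower, 0.68%.

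Among the 22, named after their values were seen, were genes described above (Il33, Lrp5, Acta2, Dusp5, Vax1, Emx2, Pdlim1, Prdx5), and the sulfate donor synthase gene Papss2 at 5.45, Calhm2 at 6.29 and the chromatin remodeller gene Smarca2 at 1.81 in the authors' deposited table. The shift of 0.44 is small beside most of these ratios, but it exceeds the distance from the threshold for genes such as Klf9 (1.13) and B4gat1 (1.13) in the authors' deposited table. After each chromosome's median was subtracted 309 genes were called higher and 185 lower. The deposited score could not be recomputed, and only 3 genes with a score of 0.8 or more had an absolute ratio under 1. These counts could therefore change little, and they do not show how far the shift affects the calls. With JICD1 the off-floor medians were 0.18 for chromosome 19, 0.52 for chromosome 3 and -0.46 for chromosome 15, where NICD1 had -0.01 and -0.04. DNA copy number was not analysed here, and a difference in chromosome number between the cell populations was not tested.

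**Figure D4:**
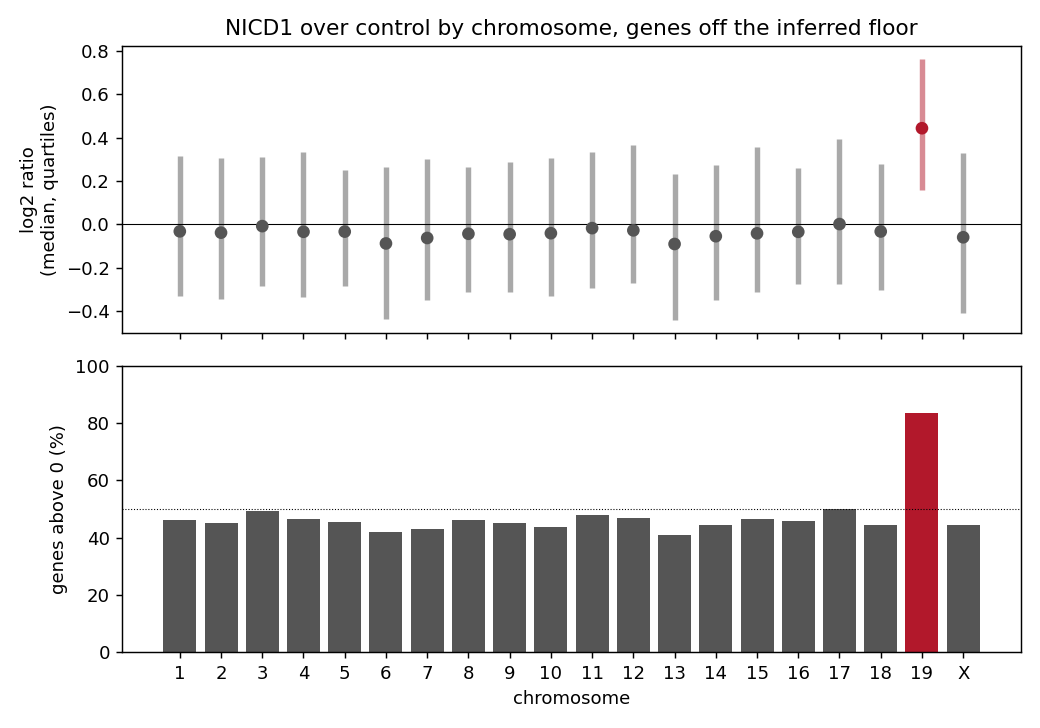
Upper panel, median (point) and quartiles (bar) of the log2 ratio of NICD1 over control on each chromosome, for genes with no group inferred at the floor; lower panel, percent of those genes above 0, with a dotted line at 50. Chromosome 19, in red, has a median of 0.44 and 83.6% above 0, and the other chromosomes lie between -0.09 and 0.00 and between 41% and 50.1%.

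Of 14 measured Y-linked genes 0 were called higher and 2 lower, the latter 14.3% against 0.97% of all genes. Of the 8 with no group inferred at the floor 5 lay above 0, with quartiles of -1.49 and 0.97. The broadly expressed Uty, Ddx3y, Eif2s3y and Kdm5d were higher, although none was called. The authors' deposited table gave Uty 1.16, Ddx3y 1.09, Eif2s3y 0.92 and Kdm5d 0.91. Their JICD1 ratios were 1.32, 1.25, 1.35 and 1.51 in the authors' deposited table, against the same control. These genes were picked after the values were seen. Rbmy, a multicopy germ cell gene of the Y chromosome, had -5.14 (score 0.967) with NICD1 and 0.50 with JICD1 in the authors' deposited tables.

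Called genes lay next to each other in 25 pairs of neighbouring measured genes, 16 higher and 9 lower. Of all genes 1.62% were called higher and 0.97% lower. The number of pairs to be expected from these shares was not worked out. Some pairs are copies of each other, such as Prl2c3, Prl2c2 and Prl2c5 in a row, Akr1c14, Akr1c18 and Akr1c13 in a row, Col6a2 with Col6a1, and Crip2 (-1.12) with Crip1 (-1.36) in the authors' deposited table. Others are not copies, and were picked here after their values were seen: Pla2g4a with Ptgs2, which act in turn in prostaglandin synthesis, Bhlhe22 with Cyp7b1, Col11a1 with S1pr1 (4.23), and Ctsc with Rab38 (7.87) in the authors' deposited table. For Rab38 and Bhlhe22 control was inferred at the floor. Within 5 consecutive genes, Hspa12a (4.07), Shtn1 (2.62) and Vax1 lay together on chromosome 19 in the authors' deposited table. At a score of 0.9 or more 3 of such pairs were counted.

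Markers of cell types were compared between NICD1 cells and controls. Ratios cannot check the label astrocyte itself. Of 14 measured astrocyte markers 4 lay above 0, 0 were called higher and 2 lower, with a median of -0.70. Clu, which encodes clusterin, had -2.30 and Sox9 -1.64, and the uncalled Gfap, the astrocyte filament gene, had -1.52 and Apoe -1.59, in the authors' deposited table. Slc1a2, a glutamate transporter gene, had 2.98 with control inferred at the floor in the authors' deposited table. Whether fewer cells express such genes or each cell has less RNA of them cannot be told apart in bulk RNA. The table holds ratios only, so whether control cells express these markers strongly is not known.

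Markers of other cell types lay on both sides of 0. Of 9 neuron markers 7 lay above 0, Gap43, Map2 and Stmn2 were called higher and Tubb3 lower, with a median of 0.89. Of 6 smooth muscle markers 5 lay above 0, Tagln and Acta2 were called and the median was 1.29. That median was 1.08 with chromosome medians subtracted and 0.88 without chromosome 19, which holds Acta2. The 8 fibroblast and pericyte markers centred on -1.37, with Col1a1 called higher and Dcn and Col3a1 lower. Of 8 microglia markers 7 lay above 0 with a median of 0.88 and 0 called, and their values in the authors' deposited table ran from Tmem119 at -1.36 to Csf1r at 3.17. None of 6 endothelial, 7 oligodendrocyte, 7 epithelial, 5 ependymal or 7 neural stem markers was called. Of 7 melanocyte and Schwann markers Gpnmb was called lower. The part of a change in cell mixture in the matrix, contractile and neurite results was not tested.

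**Figure D5:**
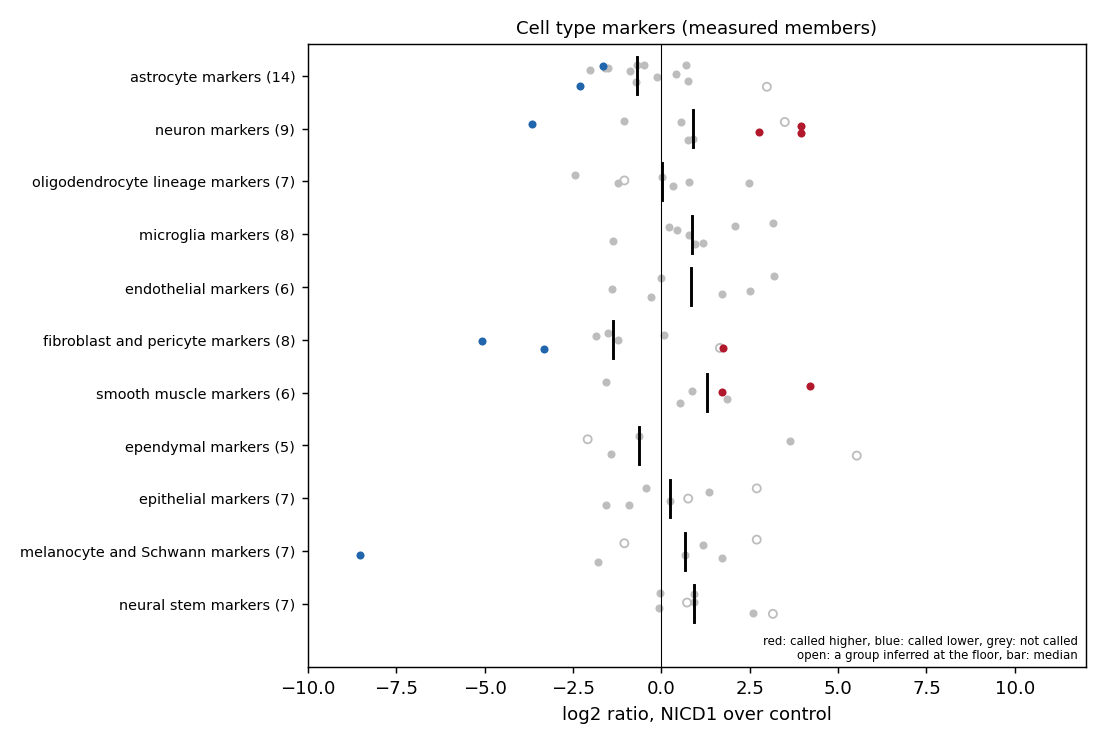
Log2 ratio of NICD1 over control (horizontal axis) for each measured marker of 11 cell types, with the number of markers in parentheses. Red points are called higher, blue called lower and grey not called, open points have a group inferred at the floor, and black bars are medians; the astrocyte median stands at -0.70, the neuron median at 0.89 and the smooth muscle median at 1.29.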

How the data were processed

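RNA-seq of 3 control and 3 NICD1 libraries was analysed from the authors' deposited table. Its values are log2 ratios of NICD1 over control and a score from 0 to 1 headed Probability, per the file headers; how the deposited score was made is not recorded, and it is not used as a p-value. The submitters' processing notes name Bowtie2, BWA and mm9, without role or version. The counting method and the way libraries were merged into 1 ratio: not given in the sources used here. A replicate test had been planned for counts per library; the table holds none, so calls (score of at least 0.8, absolute log2 ratio of at least 1) carry no test.

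Gene IDs were matched to NCBI (14285 genes) and Ensembl (4616) symbols; 97 kept the table's symbol and 289 stayed unnamed. GRCm38 annotation served for names, biotype, gene order and chromosomes (98.4% placed), not for mm9 coordinates. The members and lists were chosen with earlier results of these data known, and the pattern for bHLH genes was corrected after values were seen (Bhlhb9, not a bHLH gene, was removed and Bhlhe genes were added).

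The floor was inferred from 694 genes whose negative ratio was equal in both tables (tolerance 1e-06; 1 gene had the same positive ratio). Genes with an absolute ratio of at least 1 on their score curve, within 0.002 (0.01 above a log2 of 6), and genes above 0 with no JICD1 ratio, were treated as having a group at it. The curve ends at 9.45. Of 965 genes with no JICD1 ratio and a ratio of 1 or more, 92.5% lay on the curve.

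Named by rule were Notch1, Jag1, Cdkn2a, Hes1 and Nrarp, the 15 largest ratios and 15 highest scores in each direction, up to 5 called members of each list per direction, and each list's uncalled extremes; genes with no established symbol were left out. Some genes named by this rule are not reported here. Other names were chosen after values were seen, as said beside them. Alternatives were other thresholds, subsets of genes and other centring. Analyses used python 3.11.15, numpy 2.4.6 and pandas 2.3.3.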

Additional observations from a re-analysis of the deposited data

How the results depend on the processing

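No paired analysis was possible because the table gives each gene a ratio but nothing per library; for the same reason leaving out each library was not run, and depth limits are unknown. Counts by pathway term were not run, since the annotation column holds orthology terms. Genes called higher numbered 519 at a score of 0.7 and 90 at 0.9, against 313; with symbols of the deposited table only they numbered 171. Genes called lower numbered 341 and 28 at those scores, 102 at an absolute log2 ratio of 2 or more, and 93 with the table's symbols only, against 187. The remaining alternatives (no minimum ratio, no floor genes, genes in both tables, centring on the median, and, added after the data were seen, chromosome medians subtracted and chromosome 19 left out) gave 287 to 316 higher and 182 to 187 lower; an absolute ratio of 2 or more gave 212 higher. Centring and dropping the minimum ratio left the deposited score as it was, so counts under them could change little. Neighbouring pairs numbered 56 at a score of 0.7 and 3 at 0.9, against 25. The chromosome 19 median stayed between 0.44 and 0.48 under all alternatives run. Of list medians of at least 0.3 in size, that of melanocyte and Schwann markers turned from 0.66 to -0.19 with genes in both tables. It also turned to -0.19 without chromosome 19. Each of these alternatives leaves out members, and 7 genes make the list. The Eya and Dach median was 0.59 over 6 genes and -0.10 over the 3 with no group inferred at the floor. That list was not among the 100 compared without floor genes. List medians moved by 0.1 or more in 28 of 100 lists without genes at the inferred floor, in 27 of 101 (and 1 reversed) with genes in both tables, and in 45 of 90 with the table's symbols only. With those symbols the median was 2.09 for metalloproteinases, 1.46 for Adam and Adamts genes, 0.36 for matricellular genes, -0.38 for collagens, -0.96 for Eph genes and 0.13 for interferon-induced genes.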
